A study of Mus musculus with 4 samples.

Results

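Embryonic epidermal cells with high levels of Dkk4, Fgf20 and Sp5, the transcripts of early hair placodes, were picked out of 4 single-cell RNA-seq libraries and compared between control (Ctrl) and triple knockout (TKO) embryos. A cell entered when Krt5, Krt14, Krt15 and Krt17 together reached 10 and Krt1 and Krt10 together stayed under 20 UMIs per 10000 of that cell, when Dkk4, Fgf20 and Sp5 summed to at least 2, and when that sum exceeded both that of Shh, Wif1 and Lhx2 and that of Pthlh, Tafa1 and Krt79. A UMI is a molecular tag that counts 1 captured transcript. The members were thus selected on measured values. They numbered 400 of 11221 cells with at least 2000 genes and under 10% mitochondrial UMIs, with 67 in Ctrl 1, 105 in Ctrl 2, 103 in TKO 1 and 125 in TKO 2. The remaining cells within the same keratin limits were split by the same sums into 828 hair germ cells (led by Shh, Wif1 and Lhx2), 400 hair peg cells (led by Pthlh, Tafa1 and Krt79) and 5825 other basal cells.

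The series asked what loss of the repressive histone mark H3K9me3 does to the developing mouse epidermis. Epcam+ α6+ cells were sorted from dorsal skin at E16.5, as the labels give it, although the study's list of litters dates its single-cell litter earlier. Both groups carried floxed Suv39h1, a germline deletion of Suv39h2 and floxed Setdb1, and both received tamoxifen. TKO embryos also carried K14CreERT2, a Cre recombinase driven by the basal keratin 14 promoter, and Ctrl embryos did not. All 4 libraries therefore lacked Suv39h2, so the comparison was of Suv39h1 and Setdb1 loss on a background without Suv39h2. The study described the loss as mosaic and drew on a single listed litter, with 1 embryo per library and 2 libraries per genotype. Each genotype held at least 1 female and 1 male, so sex was spread over the groups but not separable from embryo.

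The hair placode is the first visible stage of a hair follicle, a local thickening of the basal epidermis. Wnt signals acting through β-catenin and Lef1, together with the ectodysplasin receptor Edar and its NF-kB pathway, set up the placode. The placode then makes Dkk4, a secreted Wnt inhibitor, Fgf20, a growth factor that gathers dermal cells beneath it, and Shh, which drives downgrowth. Sp5 is a zinc finger transcription factor and a direct target of Wnt and β-catenin.

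Promoter sequences are shown for Sp5, the rule gene whose level differed most between genotypes, and for Edar, the placode marker outside the rule. The third is that of Sox21, a transcription factor gene higher in placode than in other basal cells and lower in TKO. Each is the 250 bases before the RefSeq gene start on GRCm38.p6, written 5′ to 3′ on the gene's strand, with matches to CTTTGA or CTTTGT on either strand in capitals. These letters are the core recognised by Lef1 and its Tcf relatives. The windows are chr2:70474673-70474922 on the plus strand, chr10:58675697-58675946 on the minus strand and chr14:118237031-118237280 on the minus strand.
Sp5: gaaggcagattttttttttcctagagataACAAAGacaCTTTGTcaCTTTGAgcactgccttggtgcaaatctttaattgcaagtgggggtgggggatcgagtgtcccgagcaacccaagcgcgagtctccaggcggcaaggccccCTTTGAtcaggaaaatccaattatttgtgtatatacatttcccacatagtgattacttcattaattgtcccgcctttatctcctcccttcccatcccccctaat
Edar: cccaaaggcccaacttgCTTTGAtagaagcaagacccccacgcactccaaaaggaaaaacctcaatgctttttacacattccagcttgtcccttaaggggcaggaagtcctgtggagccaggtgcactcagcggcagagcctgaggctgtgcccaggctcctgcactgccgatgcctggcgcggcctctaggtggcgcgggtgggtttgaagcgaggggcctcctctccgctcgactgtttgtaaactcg
Sox21: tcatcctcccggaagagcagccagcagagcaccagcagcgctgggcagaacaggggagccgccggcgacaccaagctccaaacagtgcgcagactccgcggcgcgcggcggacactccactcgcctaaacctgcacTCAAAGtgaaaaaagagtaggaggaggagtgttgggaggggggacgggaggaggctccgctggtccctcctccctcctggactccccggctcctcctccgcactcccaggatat
The Sp5 window held 4 matches, and the Edar and Sox21 windows held 1 each. Of 32851 RefSeq windows of this length, 27.6% held at least 1 match and 31 windows (0.0944%) held 4 or more. The matches describe letters, not binding. Of 5 genes looked up, 3 had an entry, and Dkk4 and Fgf20 were not among them.

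The barcodes of all libraries numbered 19789, with 70749496 to 89655247 UMIs per library. Pairs of libraries shared 2 to 12 barcodes, and no member barcode was shared. Members of TKO libraries were deeper, with a median of 27851 and 26668 UMIs per cell against 21892 and 16007 in Ctrl 1 and Ctrl 2, and summed to 1601696, 1861135, 3305419 and 3681325 UMIs in Ctrl 1, Ctrl 2, TKO 1 and TKO 2. Median mitochondrial shares were 1.95% to 2.52%, and Scrublet marked 1 to 3 members per library as likely doublets. Counting intervals and floors given here cover counting error only.

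The 3 genes of the sum did not make up the members in the same way in both genotypes. At full depth all 3 of Dkk4, Fgf20 and Sp5 were seen in 47.8% and 41.0% of Ctrl members and in 54.4% and 64% of TKO members. Dkk4 held 63.7%, 57.3%, 56.8% and 60.7% of the sum in Ctrl 1, Ctrl 2, TKO 1 and TKO 2. Its part was the largest in every library and similar in the genotypes. Fgf20 held 27.3%, 33.1%, 16.6% and 14.3%, and Sp5 held 8.99%, 9.61%, 26.6% and 25.0%, so that the second place passed from Fgf20 in Ctrl to Sp5 in TKO. These are values of the rule's own genes and carry no test.

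Levels are given as CPM, a gene's UMIs per 1000000 UMIs after adding up all cells of that class from 1 library. Dkk4 stood at 407 and 387 CPM in Ctrl and 358 and 434 in TKO placode cells. Fgf20 stood at 174 and 224 CPM in Ctrl and 105 and 102 in TKO. Its genotypes did not overlap. Sp5 stood at 57.4 and 65.0 CPM in Ctrl and 168 and 178 in TKO. Sp5, which as part of the sum also helped to set the other classes, read 35.5 and 39.9 CPM in Ctrl against 81.5 and 92.6 in TKO hair germ cells, and 0.708 and 0.67 against 6.11 and 4.80 in other basal cells. Krt15, a basal keratin, read 893 and 952 CPM in Ctrl and 419 and 359 in TKO placode cells, while Krt17, a keratin of the early follicle, read 596 and 679 against 927 and 887. Shh read 154 and 132 CPM in Ctrl and 75.9 and 108 in TKO placode cells.

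With every cell thinned to 5000 UMIs, so that depth did not differ, Sp5 was found in 18.2% and 23.1% of Ctrl and 48.5% and 54.0% of TKO placode cells. In cells below the keratin minimum, which should lack the gene, the shares were 0.9% and 0.5% in Ctrl and 1.9% and 1.0% in TKO, well below those of the placode cells. Fgf20 was found in 56.1% and 63.5% of Ctrl and 41.7% and 37.1% of TKO placode cells at that depth, and in 0.45% to 1.02% of cells below the keratin minimum.

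The label was checked against Edar, the receptor for ectodysplasin, which the rule did not use. Edar was found in 77.3%, 79.8%, 68.9% and 80.6% of thinned placode cells in Ctrl 1, Ctrl 2, TKO 1 and TKO 2, against 7.9%, 5.2%, 3.7% and 1.6% of cells below the keratin minimum. Its level read 543, 430, 362 and 592 CPM in placode cells and 105, 96.1, 73.6 and 81.8 CPM in other basal cells. Hair germ cells were close to placode cells, at 428, 334, 509 and 499 CPM, so that Edar set placode cells apart from other basal cells but not from the hair germ. The values go with the label in all 4 libraries.

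**Figure D1:**
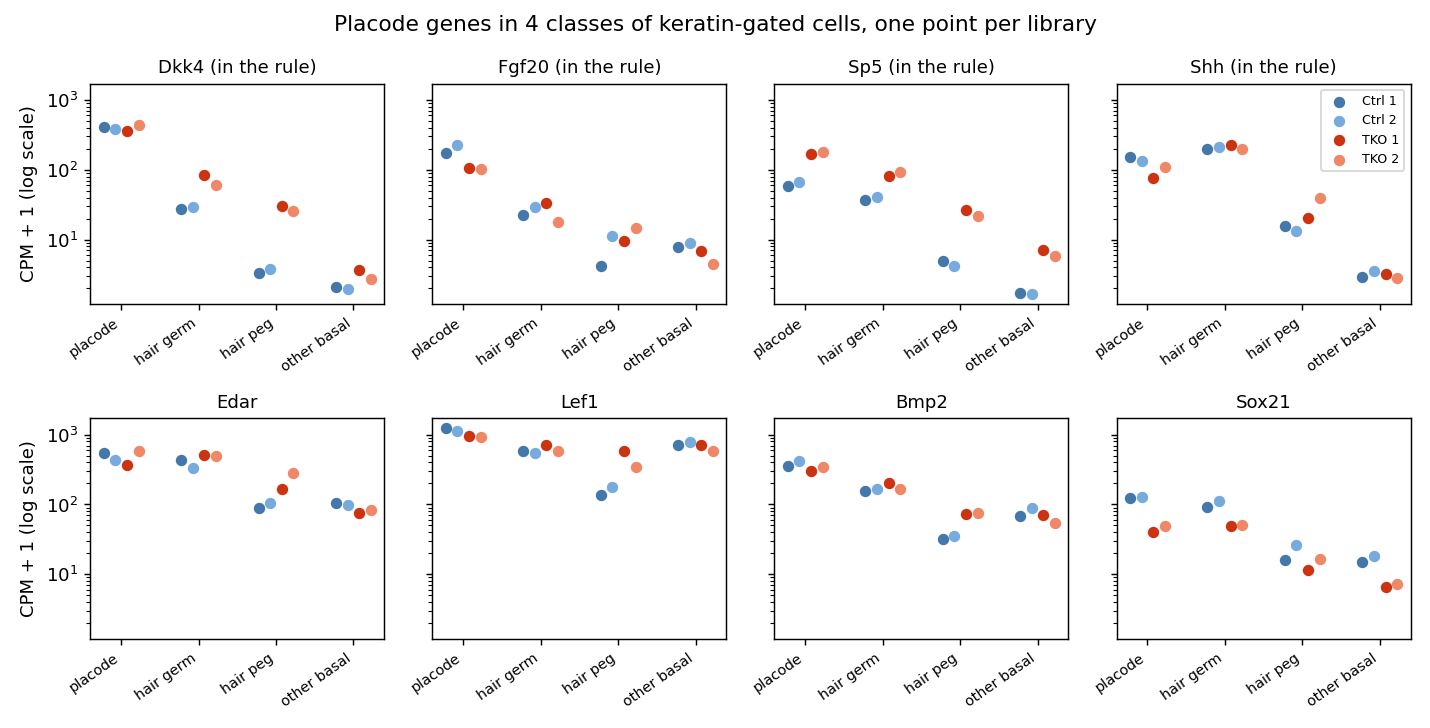
Level of 8 genes (CPM plus 1, log axis) in placode, hair germ, hair peg and other basal cells, 1 point per library, Ctrl and TKO in different colours. Dkk4, Fgf20, Sp5 and Shh chose the classes and are shown as a description. Edar lies between 362 and 592 CPM in the placode points and at 73.6 to 105 in the other basal points, and the Sp5 points of TKO lie above those of Ctrl.

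Genes outside the rule also separated placode cells from other basal cells. The ones named here were chosen after their values were seen, among genes of at least 50 CPM, and since the same cells made the classes the ratios are a description with no test. Tll1, a metalloprotease that cleaves BMP antagonists, averaged 107 CPM in placode and 3.87 CPM in other basal cells over the 4 libraries, a ratio of 22.2 (17.5 to 27.2 by library). Ascl4, a basic helix-loop-helix factor, and Frem1, a basement membrane protein, each had a ratio of 14.2. Ltb, the NF-kB target lymphotoxin β, had a ratio of 12.9 (7.004 to 18.7 by library), and Tgfb2, a secreted transforming growth factor, one of 11.7. Transcription factor genes in this group were Nr3c2 at 9.83, Myb at 9.38, Sox21 at 7.28 and Runx2 at 6.26, and secreted or matrix proteins were Scube1 at 8.41 and Fn1, fibronectin, at 6.56. Edar had a ratio of 5.35. Bmp2 read 358, 415, 297 and 346 CPM in placode cells and 66.7, 87.1, 69.6 and 52.9 in other basal cells.

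Fewer genes separated placode from hair germ cells. Igfbp2, which binds insulin-like growth factors, averaged 406 CPM in placode and 34.3 CPM in hair germ cells, a ratio of 11.5. By library the ratio was 5.97 and 7.56 in Ctrl and 24.7 and 10.0 in TKO. Igfbp2 was not particular to placode cells. In Ctrl its level in other basal cells, given below, was above that in placode cells, and in TKO it was below. Slc1a3, a glutamate transporter, had a ratio of 6.18, and Kcnh7, a potassium channel, one of 5.96. Lhx2, which the rule used, stood in the other direction, at 35.6 to 50.8 CPM in placode and 381 to 634 CPM in hair germ cells.

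Placode cells made up a larger share of the gated basal cells in both TKO libraries than in either Ctrl library. The shares were 3.29% (95% Clopper-Pearson interval 2.56% to 4.16%) in Ctrl 1, 4.09% (3.35% to 4.92%) in Ctrl 2, 7.36% (6.05% to 8.86%) in TKO 1 and 8.53% (7.15% to 10.1%) in TKO 2. The means were 3.69% ± 0.563 in Ctrl and 7.95% ± 0.827 in TKO (SD, n = 2), and the 4.26 point difference had a two-sided exact permutation p = 0.333, the smallest that 2 against 2 libraries can give. Sp5 was higher and Fgf20 and Shh lower in TKO placode cells, and these genes also chose the cells. Among thinned hair germ cells, Shh was found in 45.7% and 44.0% of Ctrl and 50.6% and 49.5% of TKO cells. Fgf20 was found there in 11.2% and 10.5% against 12.7% and 10.1%, and in 3.1% and 3.4% against 2.8% and 1.5% of other basal cells. A change in the number of placode cells and a change in the level of the genes that choose them therefore cannot be told apart. Without Sp5 in the sum the shares were 2.95%, 3.74%, 4.65% and 6.14%, a difference of 2.05 points. Among follicle cells of any class, placode cells made up 15.8% and 15.7% in Ctrl and 50.7% and 35.5% in TKO. Hair peg cells stood at 6.28% and 8.91% of gated cells in Ctrl and 1.29% and 1.71% in TKO, and hair germ cells at 10.9% and 12.7% against 5.65% and 13.6%, where the genotypes overlapped.

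**Figure D2:**
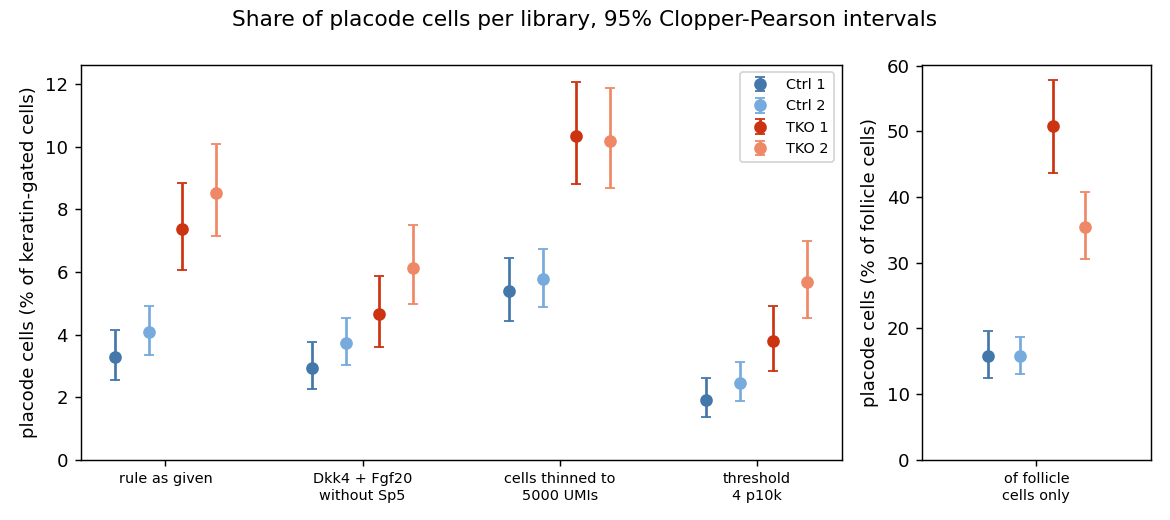
Placode cells as a percentage of gated basal cells under 4 settings and of follicle cells, 1 point per library with its 95% Clopper-Pearson interval. Both TKO points lie above both Ctrl points in each setting, and the gap narrows from 4.26 to 2.05 points when Sp5 is left out of the sum.

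The threshold was passed by a narrow margin in part of the members. The lowest member sum was 2.005 and the highest sum just outside was 1.97 UMIs per 10000. Between 2 and 2.5 there were 8, 14, 19 and 15 members in Ctrl 1, Ctrl 2, TKO 1 and TKO 2, and between 1.5 and 2 there were 15, 21, 15 and 10 cells outside. The median sum was 4.35, 4.95, 4.21 and 5.26.

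For the genotype effect the UMIs of the members were summed per library and fitted with edgeR's quasi-likelihood test across all genes, with Benjamini-Hochberg adjustment. The 15 genes of the rule and the mitochondrial genes carry no test. Of 11235 genes tested, 683 (6.08%) passed an adjusted p of 0.05, with 412 (3.67%) raised and 271 (2.41%) lowered in TKO. The 683 genes all had libraries that did not overlap between genotypes, as did 5890 (52.4%) of all tested genes. The median log2 change of all tested genes was -0.01. Leaving Sp5 out of the sum kept 60, 96, 65 and 90 members in Ctrl 1, Ctrl 2, TKO 1 and TKO 2. With these members 392 genes were called, and some genes named below lost their call. The number of calls rested on single libraries: it was 382 without Ctrl 1, 354 without Ctrl 2, 658 without TKO 1 and 1135 without TKO 2, and it was 317 with the replicate number as a block.

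The targeted genes were seen in all libraries, and the tags count transcript ends, whose position against the deleted exons is not given in the sources used here. Setdb1, the methyltransferase that marks retroelements and genes outside the lineage, read 68.7 and 49.4 CPM in Ctrl and 33.0 and 36.9 in TKO placode cells. The libraries did not overlap, but the log2 change of -0.78 had an adjusted p = 0.0529. Suv39h1, which marks constitutive heterochromatin, read 28.7, 25.3, 23.6 and 24.2 CPM (log2 change -0.21, adjusted p = 0.645). Suv39h2, deleted in all embryos, still gave 21.2, 22.6, 27.8 and 19.0 CPM.

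**Figure D3:**
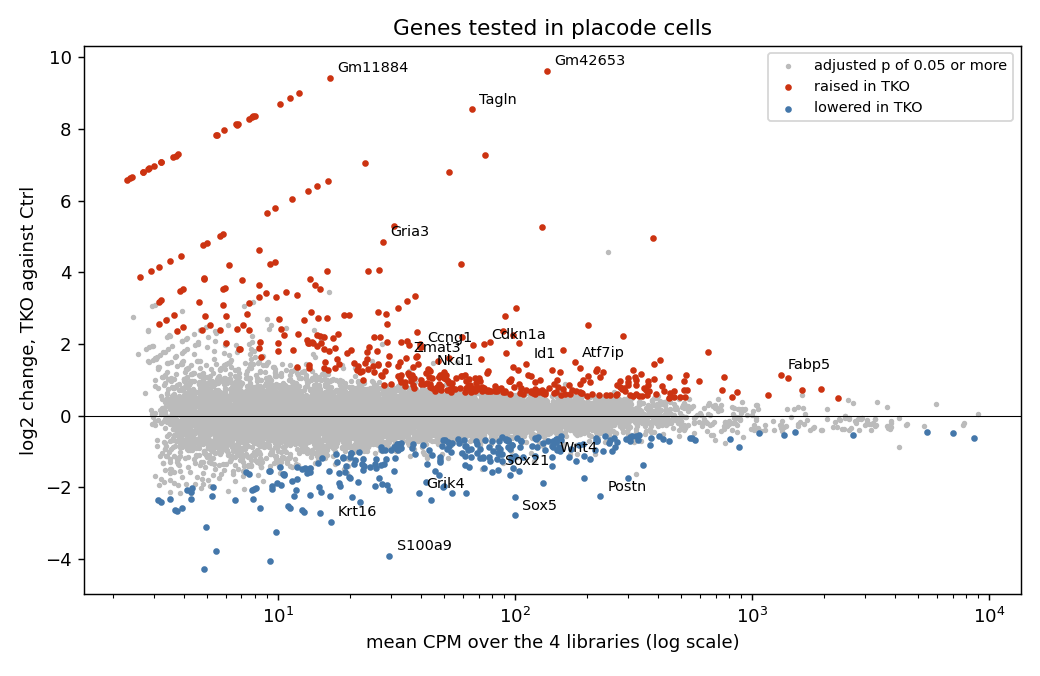
Log2 change TKO against Ctrl of every tested gene in placode cells against its mean level (CPM, log axis), with called genes coloured. The 412 raised genes include a group above a log2 change of 8 that was at or near 0 in both Ctrl libraries, and the 271 lowered genes reach -4.29 (Saxo1).

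Transcripts almost absent from Ctrl placode cells led the raised genes. Of the called genes, 27 had no UMI in either Ctrl library, and 49 raised genes lay under 1 CPM in both. The called genes with no UMI in either TKO library numbered 0. Genes so low in Ctrl entered the test only through TKO, whose sums held more UMIs. Their share among all tested genes was not counted, so these numbers describe the called genes only. Gm42653, an unclassified transcript on chromosome 5 (GRCm39, 70718608 to 70721446, plus strand), counted 0, 1, 1209 and 665 UMIs in Ctrl 1, Ctrl 2, TKO 1 and TKO 2, a ratio of 929 with a counting interval of 166 to 36705. At 5000 UMIs it was found in 0 of 66 and 0 of 104 Ctrl placode cells, which at 3 counts of the total allows up to 4.55% and 2.88% of cells with a UMI at that depth and sets no limit on cells expressing it, and in 68.9% of TKO 1 and 46.0% of TKO 2 placode cells, so that it was missed in a part of the TKO cells. In TKO cells below the keratin minimum it was found in 8.7% and 8.2%. The long noncoding RNA gene Gm11884 counted 0, 0, 111 and 121 UMIs, at least 38.3-fold higher in TKO against a floor of 3 UMIs over both Ctrl libraries.

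Of 10 transcripts listed as derepressed in TKO, a list drawn from these same libraries and so no independent evidence of direction, 8 were tested. All 8 were raised, against 3.67% of all genes, with a median log2 change of 6.97 against -0.01 over all genes. Their Ctrl sums were 0 to 5 UMIs per library, so they passed the expression filter only through TKO. The direction was thus fixed once they were tested, and the contrast with all genes carries no weight. Any of the 10 was found in 1.5% and 1.0% of Ctrl and 76.7% and 58.9% of TKO placode cells at 5000 UMIs, and in 7.6%, 9.93%, 32.4% and 29.9% of cells below the keratin minimum. Gria3, a glutamate receptor subunit, read 3.12, 0.537, 68.1 and 38.6 CPM. Tdrd1, a germline protein of the piRNA pathway, had a ratio of 38.7 (counting interval 6.74 to 1546), and Npffr1, a neuropeptide receptor, was at least 12.6-fold higher. D7Ertd128e, at least 5.45-fold higher, lost its call without Ctrl 1 (adjusted p = 0.106) and without Ctrl 2 (0.119).

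The other genes among the 12 with the largest rise were channel subunits, a transporter, an adaptor, smooth muscle genes and little-known transcripts. Dpp6 and Dpp10, accessory subunits of potassium channels, were at least 18.0-fold and 15.7-fold higher. Dpp10 was found in 5 TKO 1 and 9 TKO 2 members, with 14 of 24 and 21 of 71 UMIs in 1 cell, and for Dpp6 1 cell held 28 of 66 UMIs in TKO 2. Abcb1b, a drug efflux pump, was at least 17.2-fold higher and Pid1, an adaptor of insulin signalling, at least 18.2-fold. Gm1110, the pseudogene Tnxa, 3100003L05Rik and 4930447C04Rik were at least 28.6-fold, 26.1-fold, 18.3-fold and 15.5-fold higher. These 8 were called in each fit that left out 1 library, and each was found in 5 to 25 of 103 TKO 1 and 8 to 24 of 125 TKO 2 members.

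Bex1, a small adaptor protein of nerve cells on the X chromosome, had the smallest adjusted p of all tested genes and was named for it after the values were seen. It read 23.7 and 22.6 CPM in Ctrl and 864 and 610.4 in TKO placode cells (log2 change 4.95 ± 0.21 SE, adjusted p = 3.61e-06). At 5000 UMIs it was found in 13.6% and 6.73% of Ctrl and 66.0% and 48.4% of TKO placode cells, against 2.63% and 1.58% of Ctrl and 7.64% and 3.0% of TKO cells below the keratin minimum. A single cell of TKO 2 held 28.7% of that library's Bex1 UMIs.

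Smooth muscle transcripts rose through few cells. Tagln, which binds actin in smooth muscle, counted 0, 1, 676 and 212 UMIs, a ratio of 440 (counting interval 78.8 to 17403). A single cell held 347 of the 676 in TKO 1 and a single cell held 162 of the 212 in TKO 2, and at 5000 UMIs Tagln was found in 13.6% and 3.2% of TKO placode cells, against 3.74% and 2.59% of TKO cells below the keratin minimum, so that the TKO 2 share was near that background. Myl9, a myosin light chain and at least 22.8-fold higher, had 49 of 105 UMIs in 1 cell of TKO 1 and 25 of 33 in 1 cell of TKO 2. For Acta2, smooth muscle actin, 1 cell held 749 of 909 UMIs in TKO 1 and 81 of 84 in TKO 2, against 0 and 3 UMIs in Ctrl (ratio 164, counting interval 56.0 to 797, adjusted p = 0.0207, and 0.0537 without Ctrl 1).

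The 12 genes with the largest fall included the transcription factors Sox5 and Lmx1a and the genes S100a9 and Krt16 of activated epidermis. Sox5, an SRY-box transcription factor on chromosome 6 (143774151 to 144727703, minus strand), read 175 and 172 CPM in Ctrl and 13.6 and 37.5 in TKO (log2 change -2.77 ± 0.34, adjusted p = 0.00185). S100a9, a calcium-binding protein of inflamed epidermis and myeloid cells, read 46.8, 63.4, 3.93 and 3.53 CPM (-3.91 ± 0.28, 0.000122). Krt16, a keratin of activated epidermis, read 25.6, 33.3, 2.42 and 5.16 CPM (-2.96, 0.00232). Lmx1a, a LIM homeodomain factor, read 30.6, 21.5, 5.14 and 2.99 CPM (-2.71, 0.00291). In these 4 genes every Ctrl library exceeded both TKO libraries by several-fold, and the calls held without any 1 library.

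The other lowered genes of the largest change were low in Ctrl too. Saxo1, a microtubule protein of cilia, had the largest fall, from 13.1 and 5.37 to 0.605 and 0.272 CPM (-4.29, adjusted p = 0.00911), and had no test without Ctrl 1. Ppm1h, a phosphatase, fell from 19.4 and 24.7 to 5.45 and 1.63 CPM (-2.70, 0.00876). Adamts9, a matrix protease, and the neighbouring noncoding gene 9530026P05Rik, on overlapping stretches of chromosome 6, both fell (-3.78 and -3.26), and without Ctrl 1 their adjusted p was 0.0701 and 0.0957 (9530026P05Rik without Ctrl 2, 0.0523). Cabp1, a neuronal calcium sensor (-4.07), had an adjusted p of 0.0847 without Ctrl 1, and Trim12a (-3.11) one of 0.33 without Ctrl 1 and 0.106 without TKO 1. Reln and A430010J10Rik lost their calls without any of the 4 libraries (adjusted p 0.0939 to 0.407 for Reln and 0.119 to 0.217 for A430010J10Rik).

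Of 16 genes listed as lowered in TKO, again drawn from these libraries, 9 were tested and 7 were lowered, against 2.41% of all genes. Grik4, a kainate receptor subunit, read 70.6, 57.5, 13.9 and 15.2 CPM (-2.16 ± 0.21, adjusted p = 0.000606). Slc24a3, a sodium and calcium exchanger, fell by 1.96 and Wnk2, a kinase, by 1.37 on the log2 scale, and Wnk2 lost its call with cells thinned to 5000 UMIs (0.106). Gm2164 (-2.14) lost its call without any of the 4 libraries (adjusted p 0.152 to 0.295). Postn, periostin, a matrix protein named from the comparison with hair germ cells, read 360.2, 393, 56.3 and 105 CPM (-2.25, 0.00137).

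In the Wnt pathway, which starts the placode, 1 gene of each of the 3 lists passed the test, close to the 6.08% of all genes that did. Of 13 listed ligands and secretion factors 10 were tested, with 0 raised and 1 lowered. Wnt4, a ligand of the basal layer, read 212 and 181 CPM in Ctrl and 106 and 75.8 in TKO placode cells (log2 change -1.15 ± 0.18, adjusted p = 0.00531), and it kept its call in each alternative that measured it. Wnt10b, the ligand of the early placode, read 244, 229, 185 and 183 CPM (-0.40, adjusted p = 0.121). Wnt10a, the other placode ligand, read 34.3, 45.7, 64.4 and 58.9 CPM (0.58, 0.103), and Wnt6 read 122, 179.998, 286 and 181 CPM (0.58, 0.172). Wnt3 (0.04), Wnt16 (0.21) and Wls, which carries Wnt proteins to the surface (0.03), had changes near 0.

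Receptors and modulators of Wnt signalling numbered 28, of which 20 were tested, 0 raised and 1 lowered, with 15 of the 20 changes negative and a median of -0.35 against -0.01 over all genes. Ror1, a receptor of noncanonical Wnt signals, read 192, 176, 123 and 104 CPM (-0.74, adjusted p = 0.0181), and lost its call without Ctrl 1 (0.114) and without Ctrl 2 (0.0526). Sostdc1, the inhibitor that spaces placodes, read 48.1, 47.8, 29.0 and 31.2 CPM (-0.70, 0.0523). Lrp4, the receptor with which Sostdc1 acts, read 779, 694, 466 and 641 CPM (-0.44, 0.173), and Fzd10, a Frizzled receptor, 302, 258, 212 and 208 CPM (-0.45, 0.0906). Kremen2, a receptor for the Dkk proteins, read 207, 234, 189 and 167 CPM (-0.35, 0.191).

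Of 21 transducers and targets 17 were tested, 1 raised and 0 lowered, with 6 changes positive, 11 negative and a median of -0.09. Nkd1, a feedback inhibitor induced by Wnt signals, read 28.1 and 22.6 CPM in Ctrl and 67.2 and 56.8 in TKO (log2 change 1.26 ± 0.20, adjusted p = 0.00586). It kept its call without any 1 library and lost it with cells thinned to 5000 UMIs (0.221). Axin2, the target gene most used as a readout of the pathway, read 51.2, 38.7, 69.3 and 55.1 CPM (0.44, 0.236). Lef1, the DNA-binding partner of β-catenin, read 1231, 1119, 956 and 936 CPM (-0.35, 0.13) and Ctnnb1, β-catenin itself, read 1797, 1729, 1515 and 1773 CPM (-0.13, 0.614). Bambi, a BMP pseudoreceptor and Wnt target, read 4.37, 6.45, 1.82 and 1.36 CPM (-1.80, 0.0912), Ccnd1, cyclin D1, 38.7, 70.9, 53.2 and 28.3 CPM (-0.49, 0.418), and Notum, a secreted Wnt inhibitor, had a change of -0.34 (0.736). The targets that were not called thus stood on both sides of 0.

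**Figure D4:**
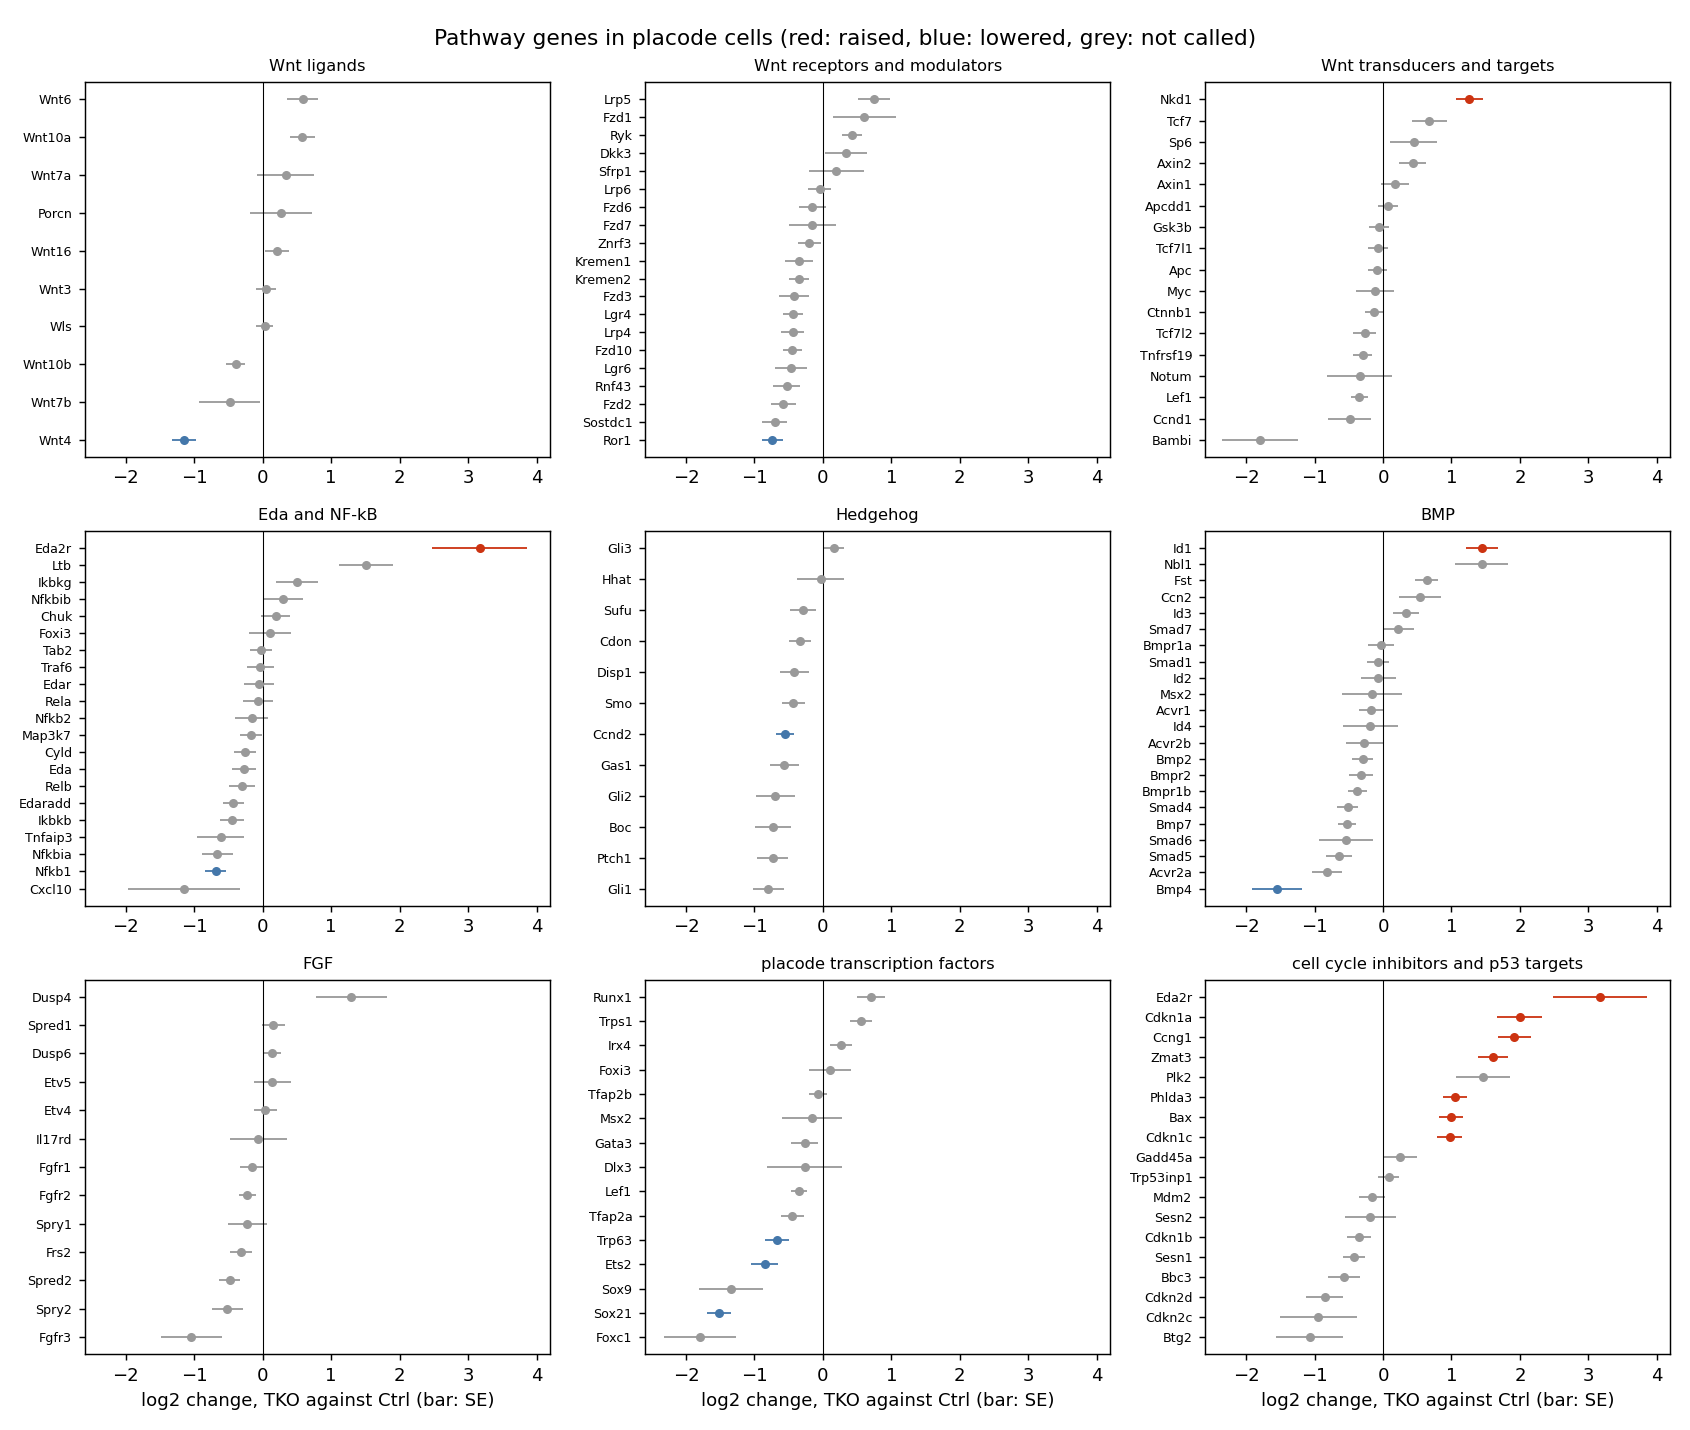
Log2 change TKO against Ctrl in placode cells, with its SE, for tested genes of 9 lists. Red points were raised and blue points lowered at an adjusted p of 0.05, and grey points did not pass. Most pathway genes lie between -1 and 1, with Wnt4, Nkd1, Id1 and Sox21 among those that passed, and the Hedgehog genes shown lie below 0 except Gli3.

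Of 23 listed genes of the Edar and NF-kB pathway 21 were tested, 1 raised and 1 lowered, where 6.08% of all genes were called. The adaptor Edaradd read 99.3, 94.0, 79.0 and 68.2 CPM (-0.43, adjusted p = 0.142), and Eda, the ligand, read 139, 99.9, 103 and 99.4 CPM (-0.28, 0.417). Edar itself had a log2 change of -0.06 (0.919), within the spread of each genotype. Nfkb1, the p50 subunit, read 241, 300.4, 170.3 and 174 CPM (-0.69, 0.0263), and without Ctrl 2 its adjusted p was 0.216. Ltb, the target in the placode, read 38.1, 19.9, 119 and 49.4 CPM (1.51, 0.0545). Eda2r, the receptor for the other ectodysplasin isoform and a p53 target, was raised (ratio 9.58, counting interval 3.12 to 47.8, adjusted p = 0.0263) and lost its call without Ctrl 1 (0.122), Ctrl 2 (0.0865) or TKO 1 (0.222). Cxcl10, an interferon and NF-kB target, read 12.5, 263, 93.5 and 36.4 CPM, so that the Ctrl libraries lay on both sides of the TKO libraries (-1.15, 0.465).

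Of 15 listed Hedgehog genes 13 were tested, 0 raised and 1 lowered (6.08% of all genes were called), with 12 negative and a median log2 change of -0.53. Ptch1, the receptor and target of Shh, read 431, 354, 180.007 and 301 CPM (-0.73, adjusted p = 0.0912). Gli1, the transcription factor induced by the pathway, read 28.1, 31.7, 18.2 and 17.1 CPM (-0.80, 0.0692). The lowered member was Ccnd2, cyclin D2, at 1576, 1631, 1024 and 1212 CPM (-0.55, 0.0406), which lost its call without Ctrl 1 (0.139), Ctrl 2 (0.169) or TKO 1 (0.169).

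In the BMP pathway, which limits placodes, Id1 rose and Bmp4 fell among 22 tested of 26 listed genes, where 3.67% of all genes were raised and 2.41% lowered. Id1, an inhibitor of basic helix-loop-helix factors and a direct BMP target, read 63.1, 54.8, 129 and 198 CPM (1.45 ± 0.23, adjusted p = 0.00601). Id3, its relative, read 272, 397, 390.3 and 471 CPM (0.33, 0.354), with Ctrl 2 between the TKO libraries. Bmp4 read 13.7, 13.4, 5.14 and 4.35 CPM (-1.55, 0.0382) and lost its call without any of the 4 libraries (0.0565 to 0.159). Bmp2, the ligand of the placode itself, had a log2 change of -0.30 (0.284), and Bmp7 read 251, 227, 176 and 164 CPM (-0.53, 0.0521). Fst, follistatin, which binds activins and BMPs, read 92.4, 102, 178 and 134 CPM (0.64, 0.0525).

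None of 13 tested FGF genes (20 listed) passed the edgeR test. Fgfr2, the main epidermal receptor, read 460.1, 467, 410.2 and 403 CPM (-0.23, adjusted p = 0.343), and the FGF-induced genes Dusp6 and Etv4 had changes of 0.14 (0.601) and 0.04 (0.927). At an unadjusted p of 0.05 the FGF count was 4, where 2399 of all 11235 tested genes passed that limit, and DESeq2 called 0. None of 12 tested Notch genes (19 listed) passed edgeR or DESeq2, and 0 had an unadjusted p under 0.05. The edgeR counts at an adjusted p can be read against the 6.08% of all genes that passed.

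Of 20 listed placode transcription factors 15 were tested, 0 raised and 3 lowered, against 2.41% of all genes lowered. Sox21, a repressor of the SOX family that follicle and placode cells express (chromosome 14, 118470644 to 118474442, minus strand), read 122 and 127 CPM in Ctrl and 39.9 and 48.9 in TKO (-1.52 ± 0.17, adjusted p = 0.00148). It was found in 34.8% and 52.9% of Ctrl and 18.4% and 21.0% of TKO placode cells at 5000 UMIs (0.14% to 1.32% of cells below the keratin minimum), and its call held without any 1 library. Trp63, the master regulator of stratified epithelium, read 757, 636, 387 and 507 CPM (-0.67, 0.0461), and Ets2, an ETS factor, read 127.99, 171, 73.2 and 96.4 CPM (-0.85, 0.0348). Trp63 lost its call without Ctrl 1 (0.261), Ctrl 2 (0.0675) or TKO 1 (0.137), and Ets2 without Ctrl 2 (0.1998) or TKO 1 (0.064). Foxi3, the forkhead factor downstream of Edar, had a change of 0.10 (0.889), and Tfap2b one of -0.06 (0.825). Runx1 read 24.3, 23.1, 43.3 and 36.4 CPM (0.71, 0.0719), and Trps1 273, 226, 422 and 331 CPM (0.56, 0.067).

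Placode cells change shape and contacts as they move, and 22 genes of adhesion and movement were all tested, with 1 raised and 1 lowered, where 6.08% of all genes were called. Nrp1, a co-receptor of semaphorins and VEGF, read 7.49, 5.91, 78.1 and 22.0 CPM (2.84, adjusted p = 0.0227) and had an adjusted p of 0.0574 without Ctrl 2. At full depth Nrp1 was found in 8 of 67 Ctrl 1, 8 of 105 Ctrl 2, 60 of 103 TKO 1 and 35 of 125 TKO 2 members. The TKO members were deeper, so these counts do not compare cells at equal depth. Itga6, the α6 integrin used in the sort, read 444, 362, 233 and 281 CPM (-0.68, 0.0378) and lost its call without Ctrl 1 (0.261), Ctrl 2 (0.0539) or TKO 1 (0.0855). Nrp2, the relative of Nrp1, was named after its values were seen, as a gene higher in placode than in other basal cells. It read 95.5, 141, 39.6 and 42.1 CPM (-1.57 ± 0.20, 0.00241), opposite in direction to Nrp1.

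All 15 listed genes of hemidesmosomes and the basement membrane were tested, with 0 raised and 4 lowered, against 2.41% of all genes lowered. The 4 were Itga6, the hemidesmosome collagen Col17a1 (-0.71), the laminin chain Lama3 (-0.67) and the anchoring collagen Col7a1 (-1.12). Each of them lost its call without Ctrl 1 (adjusted p 0.1 to 0.261), and Col17a1 and Lama3 also without Ctrl 2 (0.0839 and 0.13) and without TKO 1 (0.132 and 0.0689). Of 21 suprabasal genes 10 were tested, 2 raised and 2 lowered, where 3.67% of all genes were raised and 2.41% lowered. Fabp5, a fatty acid carrier, read 885, 728, 2074 and 1593 CPM (1.15 ± 0.15, 0.00262) and kept its call without any 1 library. Lor, loricrin, rose from 1.87 and 1.07 to 9.08 and 7.06 CPM (2.40, 0.0351) and lost its call without any of the 4 libraries (0.0666 to 0.206). Krtdap fell by 1.13 and Klf4 by 0.97 on the log2 scale, and without Ctrl 2 their adjusted p was 0.059 and 0.272 (Krtdap without Ctrl 1, 0.114). Of 19 later follicle genes 12 were tested and 1, Plet1 (-2.23, 0.00731), was lowered, with an adjusted p of 0.0633 without Ctrl 2.

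Of 20 listed cell cycle inhibitors and p53 targets 18 were tested, and 7 were raised and 0 lowered in TKO placode cells, where 3.67% of all genes were raised. Of the 18 changes 8 were negative, and the median was 0.17. Cdkn1a, the p21 inhibitor and a p53 target, read 16.9 and 40.3 CPM in Ctrl and 146 and 93.2 in TKO (1.99 ± 0.32, adjusted p = 0.00673). Ccng1, cyclin G1, read 11.9, 20.4, 68.7 and 58.4 CPM (1.92 ± 0.24, 0.00226), and Zmat3, an RNA-binding p53 target, read 14.4, 18.8, 56.9 and 48.1 CPM (1.61, 0.00291). The calls of these 3 held without any 1 library. At 5000 UMIs, Cdkn1a was found in 6.1% and 10.6% of Ctrl and 36.9% and 25.8% of TKO placode cells. Below the keratin minimum it was found in 48.7% and 44.0% of Ctrl and 35.4% and 36.6% of TKO cells. Phlda3, an Akt inhibitor, rose by 1.05 (0.00855, and 0.0539 without Ctrl 2), and Bax, which opens mitochondria in apoptosis, by 0.99 (0.0098, and 0.0593 without Ctrl 1). Cdkn1c, the p57 inhibitor, rose by 0.97 (0.0124, and 0.0861 without Ctrl 1), but 1 cell held 221 of 473 UMIs in TKO 1 and 1 cell 208 of 411 in TKO 2, and its call was lost without cells bearing defining markers of other types (0.60, 0.122). The defining markers included Acta2 and Myl9, which were themselves raised in TKO. With cells thinned to 5000 UMIs, Phlda3, Bax and Cdkn1c lost their calls. Eda2r was the last of the 7.

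Of 20 G2 and mitosis genes, all tested, edgeR called 3 raised and DESeq2 1, where 3.67% of all genes were called raised by edgeR. Their changes were positive in 18, with a median of 0.35 against -0.01 over all genes. Ube2c, a conjugating enzyme of the anaphase-promoting complex, read 164, 211, 315 and 383 CPM (0.86, adjusted p = 0.0168), and the mitotic kinases Cdk1 and Bub1 rose by 0.67 (0.0471) and 0.66 (0.0468). Without Ctrl 1 none of the 3 passed (0.14, 0.308 and 0.175), and Bub1 also failed without each other library (0.0507 to 0.206) and Cdk1 without TKO 2 (0.0577). Of 20 S phase genes none passed edgeR or DESeq2, with a median change of 0.07. In edgeR 3 had an unadjusted p under 0.05, as did 2399 of all 11235 tested genes. At 5000 UMIs, Mki67 or Top2a was found in 53.03% and 48.1% of Ctrl and 65.0% and 62.9% of TKO placode cells, and in 22.7%, 18.3%, 37.0% and 32.1% of cells below the keratin minimum in the same order of libraries.

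Of 16 genes of H3K9 methylation, all tested, 2 were raised, against 3.67% of all genes, while 8 changes were positive and 8 negative with a median of -0.01. Atf7ip, the partner that stabilises Setdb1 in the nucleus, read 101 and 84.4 CPM in Ctrl and 231 and 297 in TKO (1.48 ± 0.18, adjusted p = 0.00185). Resf1, a cofactor of Setdb1 in silencing retroelements, read 71.8, 74.1, 152 and 171 CPM (1.11, 0.00358). Both calls held without any 1 library. Atf7ip was found in 33.3% and 29.8% of Ctrl and 65.0% and 70.2% of TKO placode cells at 5000 UMIs, and in 28.2%, 26.2%, 35.9% and 37.2% of cells below the keratin minimum.

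Genes of the early response to stress and dissociation varied with Ctrl 2. Their summed level was 2322, 6385, 3434 and 2029 CPM in Ctrl 1, Ctrl 2, TKO 1 and TKO 2, so that Ctrl 1 lay between the TKO libraries. Of 19 tested of 20 listed, 0 were raised and 3 lowered, against 2.41% of all genes: Atf3 (-1.75), Klf2 (-2.58) and Dusp1 (-1.55). DESeq2 called 1 of them, Klf2. Each lost its call without Ctrl 2, with an adjusted p of 0.276, 0.282 and 0.217. The part of this response in other results was not tested.

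Markers of other cell types were low in the members, with TKO 1 highest in several lists. Summed over 9 fibroblast markers other than Dcn the members read 8.12, 10.2, 96.5 and 9.51 CPM, and 1 TKO 1 cell held 72 of 78 Col1a1 UMIs. The 10 melanocyte markers read 9.99, 8.06, 115 and 9.24 CPM, the 10 immune markers 17.5, 26.3, 81.1 and 35.3, and the 10 endothelial markers 7.49, 11.3, 20.6 and 12.8. Of 8 dermal condensate markers other than Ptch1 and Trps1, which follicle cells express, 5 were at 0 in all 4 libraries, and the sum read 1.25, 10.7, 0.908 and 0.815. With Ptch1 and Trps1 it read 705, 590.5, 603 and 633 CPM. The 10 Merkel markers read 19.98, 132, 28.1 and 14.1 CPM, with all but 1 of 129 Ccer2 UMIs of Ctrl 2 in 1 cell. The 8 erythroid markers read 13.4 to 35.9 CPM. Cells with defining markers of another type numbered 0, 2, 13 and 1 in Ctrl 1, Ctrl 2, TKO 1 and TKO 2, and without them 644 genes were called. These markers included the smooth muscle genes Acta2 and Myl9, seen in 18 and 15 TKO 1 members. As both genes were raised in TKO, the flag was not independent of the genotype effect. Dcn, decorin, a fibroblast proteoglycan, was found in 66 of 66, 104 of 104, 98 of 103 and 123 of 124 thinned placode cells, in 78.5% to 91.7% of other basal cells and in 21.1% to 34.8% of cells below the keratin minimum. It read 3032, 3256, 1971 and 2418 CPM in placode cells (-0.55, adjusted p = 0.0434). The Dcn call was lost without Ctrl 1 (0.104), Ctrl 2 (0.181) or TKO 1 (0.175).

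Whether the genotype effect in placode cells differed from that in other basal cells was tested with an interaction, in which embryo was shared by the classes. Of 18266 genes, 90 (0.493%) differed, 61 with a higher and 29 with a lower change in placode cells. That number was 117 without Ctrl 1, 43 without Ctrl 2, 248 without TKO 1 and 294 without TKO 2. With another scaling (RLE) it was 80, of which 56.2% were higher against 67.8% here. Gm42653 was not among them. It read 366 and 181 CPM in TKO placode and 384 and 211 CPM in TKO other basal cells, and with 0 and 1 UMI in Ctrl placode cells its fitted difference measures no fold.

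Igfbp2, named after its values were seen, had the smallest adjusted p of the named genes. It read 182, 222, 689 and 532 CPM in placode cells (log2 change 1.56) and 375, 405, 541 and 465 CPM in other basal cells (0.33), a difference of 1.29 that held without any 1 library. Ror1 fell by 0.74 in placode cells and by 2.14 in other basal cells, where it read 202, 219, 59.2 and 38.4 CPM, a difference of 1.49 (adjusted p = 6.63e-05) that held without any 1 library. Pou3f1, a POU factor of keratinocytes and glia, read 14.98, 10.2, 19.97 and 17.7 CPM in placode and 66.6, 80.1, 15.8 and 24.4 CPM in other basal cells, a difference of 2.54 (0.000661) that also held. Bex1 rose in both classes and differed by 0.83 (0.0084, and 0.198 without Ctrl 2). Cdkn1c differed by 1.38 (0.00279), a value that includes the single cells that held 46.7% and 50.6% of its UMIs in TKO 1 and TKO 2 placode cells. Of the placode ligands, Wnt10a differed by 0.87 (0.0125, and 0.0851 without Ctrl 2) and Wnt6 by 0.78 (0.00744), and Fst by 0.96 (0.00823, and 0.0905 without Ctrl 2). Ccn2, a matricellular protein, rose in other basal cells from 3.73 and 3.26 to 20.2 and 12.7 CPM and differed by -1.56 (0.0293, and 0.384 without Ctrl 1). The changes of Sox21 (difference -0.03, 0.995), Wnt4 (-0.50, 0.148) and Ccng1 (0.03, 1) were not shown to differ between the classes.

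Against hair germ cells 165 of 13134 genes (1.26%) differed, 81 with a higher and 84 with a lower change in placode cells. That number was 97 without Ctrl 1, 65 without Ctrl 2, 330.0 without TKO 1 and 859 without TKO 2, and TKO 1 held 79 hair germ cells. Postn fell in placode cells but read 82.9, 63.0, 64.1 and 108 CPM in hair germ cells, a difference of -2.52 (adjusted p = 6.59e-05). Sox5 read 378, 396, 60.4 and 266 CPM in hair germ cells and differed by -1.49 (0.00405). Cdkn1a differed by 1.29 (0.0108), with 25.3, 46.1, 68.4 and 50.2 CPM in hair germ cells. Bex1 differed by 2.90 (0.00115), at 20.9, 23.9, 76.8 and 104 CPM in hair germ cells. These 4 held without any 1 library.

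Some pathway and transcription factor genes that passed this test lost their call without 1 of the Ctrl libraries. Wnt10b differed by -0.81 (adjusted p = 0.0305, and 0.101 and 0.146 without Ctrl 1 and Ctrl 2) and Lef1 by -0.53 (0.0351, and 0.198 and 0.141). Kremen2 differed by -0.91 (0.0102, and 0.113 without Ctrl 2). Ltb rose in hair germ cells, from 14.1 and 11.9 to 174 and 72.2 CPM, had a change that did not pass in placode cells (1.51, 0.0545), and differed by -1.71 (0.00702, and 0.0973 without Ctrl 1). Runx1 read 343, 411, 234 and 228 CPM in hair germ cells and differed by 1.42 (0.00633, and 0.0535 without Ctrl 2), and Trps1 differed by 0.65 (0.0161, and 0.145 without Ctrl 2). Sox21 differed by -0.47 (0.286), which did not pass.

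**Figure D5:**
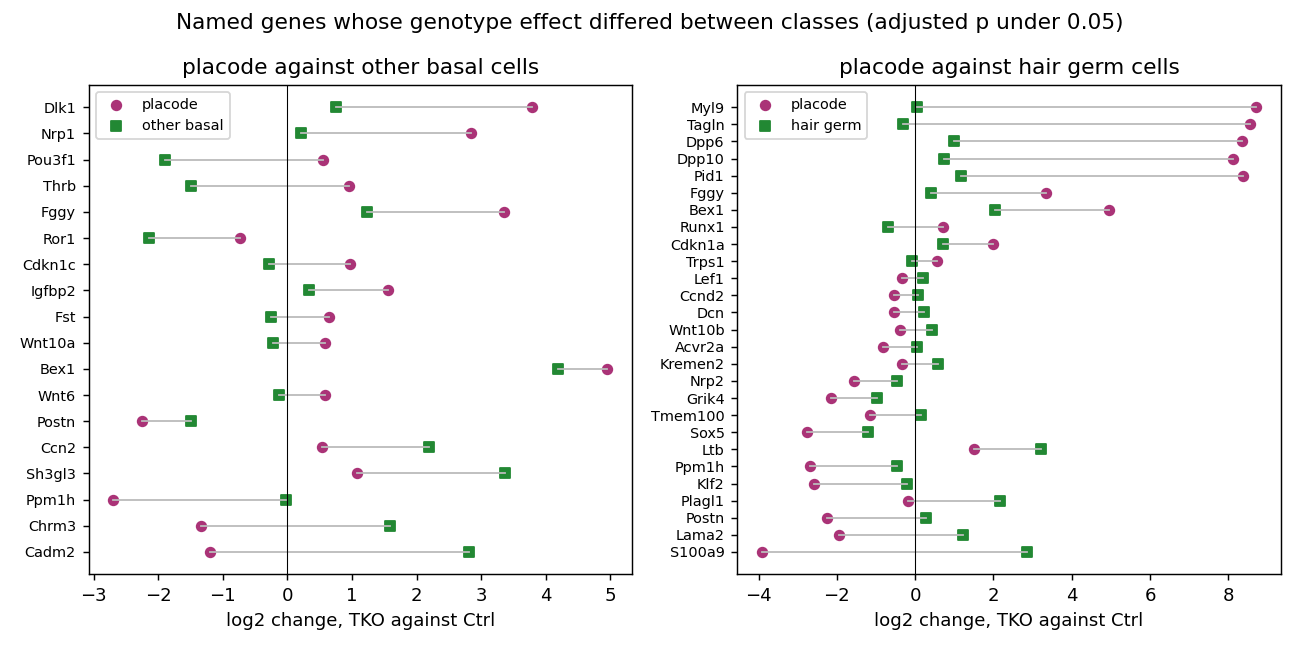
Log2 change TKO against Ctrl in placode cells (circles) and in other basal or hair germ cells (squares) for the named genes whose genotype effect differed between the classes. Pou3f1 lies at 0.55 in placode and -1.89 in other basal cells, and Postn at -2.25 in placode and 0.27 in hair germ cells. Fcgr4 and Acta2, without a fitted change in 1 of the classes, are not drawn.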

How the data were processed

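Cells sorted from dorsal skin of 4 embryos were profiled with the 10x Genomics 3′ v3 kit, about 10000 sorted and 5000 targeted per embryo. The authors aligned reads to GRCm39 with Cell Ranger, and the deposited matrices hold UMI counts per gene and barcode, filtered to called cells but not normalized (7.1.0 in the file headers). The groups came from the labels. The members and gene lists were chosen with earlier results of these data known.

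From these counts, cells were filtered and classed as described, and UMIs were summed per library and class. Sums were tested with edgeR 4.0.16 (R 4.3.3; filterByExpr, TMM, quasi-likelihood), TKO against Ctrl, with an adjusted p under 0.05 called. Differences of the effect between classes were tested in 1 model with embryo as a term. Members summed to 1601696 to 3681325 UMIs per library. Alternatives were RLE scaling, DESeq2 1.42.0, no filter, thinning to 5000 UMIs, Scrublet doublets out, a sum of 4, each library out, and the replicate number as a block. Chosen after seeing the data were the sum without Sp5, cells with defining markers of other types out, and crossed numbers as a block. The fits were tested on simulated data. Named were the 12 raised and 12 lowered genes of largest change among called genes with non-overlapping libraries, 5 and 5 per interaction with libraries of either class not overlapping, called list genes, and genes of the Wnt, Edar, Hedgehog, BMP, FGF and transcription factor lists. P-values over 2 embryos per genotype measure the spread between these libraries only. Replicate numbers named libraries and did not pair embryos: their deviations had r = -0.226 over 6868 genes of at least 20 CPM. Of 203 named genes, 164 overlap another gene annotated in GENCODE on GRCm39, 65 on the same strand, where counting could split reads. Some results are not reported here. The promoter windows are on another build and were matched by symbol. The study's methods name another Cell Ranger version than the headers.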

Additional observations from a re-analysis of the deposited data

Results flagged for a closer look

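The 10 largest differences of the genotype effect between placode and other basal cells, and the 10 between placode and hair germ cells, were looked at again because the difference itself passed the interaction test. Each value is the log2 change in placode cells minus that in the other class, from edgeR's quasi-likelihood test with Benjamini-Hochberg adjustment.

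Against other basal cells the higher values were Dlk1, an imprinted membrane protein, at 3.28 (adjusted p = 0.0266), Nrp1 at 2.62 (0.0218), Pou3f1 at 2.54 (0.000661), Thrb, a thyroid hormone receptor, at 2.49 (0.0136) and Fggy, a carbohydrate kinase, at 2.15 (0.0143). The lower values were Fcgr4, an immunoglobulin receptor of myeloid cells, at -12.60 (0.0207, fitted against placode sums of 0 in the other 3 libraries and so no measure of a fold), Cadm2, a neuronal adhesion protein, at -3.83 (0.0207), Chrm3, a muscarinic receptor, at -3.07 (0.0308), Ppm1h at -2.65 (0.0175) and Sh3gl3 at -2.19 (0.00292). Pou3f1 held without any 1 library. Without Ctrl 2 the adjusted p was 0.181 for Dlk1, 0.296 for Nrp1, 0.139 for Fggy, 1 for Fcgr4, 0.956 for Cadm2, 0.226 for Chrm3, 0.143 for Ppm1h and 0.0653 for Sh3gl3. Without Ctrl 1 it was 0.0512 for Thrb, and without TKO 2 it was 0.132 for Fcgr4, whose placode UMIs all lay in Ctrl 2.

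Against hair germ cells the higher values were Acta2 at 9.26 (0.000521), Myl9 at 9.11 (0.0115), Tagln at 8.55 (0.00816), Dpp6 at 8.16 (0.0131) and Dpp10 at 8.11 (0.0222), each fitted against Ctrl placode sums of 0 to 3 UMIs and so no bound on a fold. The lower values were S100a9 at -6.57 (0.00228), Lama2, a laminin chain, at -3.21 (0.00153), Postn at -2.52 (6.59e-05), Plagl1, an imprinted zinc finger factor, at -2.38 (0.011) and Klf2 at -2.37 (0.0103). S100a9 fell in placode cells while TKO 1 hair germ cells read 54.2 CPM against 2.32 to 4.88 in the other libraries. Myl9, Tagln, S100a9, Lama2 and Postn held without any 1 library. Without Ctrl 2 the adjusted p was 0.412 for Acta2, 0.338 for Dpp6, 0.0734 for Dpp10, 0.172 for Plagl1 and 0.126 for Klf2, and without Ctrl 1 it was 0.091 for Dpp10.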

How the results depend on the processing

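Of the genes called in placode cells, 70 were named for the largest changes or from the lists. All 70 kept their sign in every alternative that measured them, 35 were called in each of the 4 fits that left out a library, and 34 in every alternative that measured them. At 5000 UMIs per cell 26 were called, 17 were not and the others were not tested. Without Sp5 in the sum 16 lost their call. They were Klf4, Krtdap, Ror1, Nfkb1, Ccnd2, Trp63, Itga6, Col17a1, Bmp4, Cdk1, Bub1, Dcn, Atf3, Dusp1, Trim12a and A430010J10Rik. The count of 683 called genes was 192 at 5000 UMIs per cell, 384 with a sum of 4, 392 without Sp5 in the sum, 404 with DESeq2 (388 shared), 1428 without an expression filter and 354 to 1135 without 1 library. Embryos are not paired by the labels, and with the replicate block the count was 317. With the numbers crossed it was 1544. The 90 genes that differed from other basal cells were 45 at 5000 UMIs, 226 with a sum of 4, 193 without Sp5, 255 without a filter and 43 to 294 without 1 library. The 165 that differed from hair germ cells were 55 at 5000 UMIs, 560.0 without a filter and 65 to 859 without 1 library. The 4.26 point difference in share was 2.54 with a sum of 4, 2.31 of all cells kept, 27.4 of follicle cells, 2.05 without Sp5, 3.68 to 4.85 without 1 library and 4.26 with the replicate block. Cxcl10 turned from -1.15 to 2.32 (adjusted p = 0.0269) without Ctrl 2, which held 263 CPM, and read -2.06 without Ctrl 1. The cause of these changes was not tested, except that a weaker filter and thinning change the number of genes tested. A planned filter on all markers of other types left 0, 0, 2 and 1 members and gave no value. With 2 libraries per genotype and 67 to 125 members per library, genes under a few CPM were not resolved.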
